A study of Mus musculus with 8 samples.

Results

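The genes described here build ribosomes in the nucleolus. RNA polymerase I copies the repeated ribosomal DNA into a long precursor RNA. Promoter factors of the SL1 complex, the DNA-bending protein UBF and the initiation factor Rrn3 place the enzyme at its start site, and small nucleolar ribonucleoproteins and assembly factors then modify, cut and fold the precursor into the subunits of the ribosome. Dividing cells spend much of their transcription on this process, and Myc and mTORC1 signalling are known to drive it. The 42 members were taken by name, with earlier results of these data known. Comparisons of the members with all genes are therefore descriptions and not independent tests. All 42 members matched 1 row each of the 54232 in the deposited expression table. They comprise 12 polymerase I parts, which are 6 subunits and 6 promoter or initiation factors, and 30 nucleolar processing factors. All 42 passed the filter on low values, as did 19087 rows in all.

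The RNA came from cultured mouse cells of C57BL/6 background that carry the label female germline stem cells (FGSCs), mitotic germ cells derived from the ovary. The 3 control libraries were from cells given DMSO, the solvent, and the 3 treated libraries from cells given C28, a compound labelled 028 in the sample titles, for 3 h. No genetic change is named for either group, and the labels do not say whether the replicates were separate cultures, so the p-values reflect variation among these 6 libraries that could be technical. One H3K27ac library of each group was not used here. The RNA libraries held 16930212 to 19197376 reads on genes.

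Markers did not all match the label. Of 12 germline genes, 5 averaged at least 10 normalized counts, namely Kit, Etv5, Ifitm3, Uchl1 and Zbtb16. The germ cell helicase Ddx4 averaged 0.669, and Dazl, Nanos2 and Nanos3 averaged 0.159, 0.173 and 0.159. Pou5f1 and Dppa3 had 0 reads in the 6 libraries, which allows up to 3 of the 108208382 reads (counting error only). Of 17 leukocyte and mast cell genes, 12 averaged at least 10, among them the pan-leukocyte protein Ptprc at 7527 and the mast cell protease Cpa3 at 6753, while the mast cell genes Fcer1a and Tpsb2 were at 0. In sum the germline list reached 23185 to 25660 normalized counts with DMSO and 19443 to 24798 with C28. Most of this sum came from Kit, which alone averaged 20987. The leukocyte and mast cell list reached 46616 to 50072 with DMSO and 42640 to 49128 with C28. The 8 fibroblast genes reached 1886 to 4719 and 2123 to 5003. No gene of these lists was called between the groups by limma without or with the replicate block, and their part in the results below was not tested.

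After 3 h of C28, RNA of the ribosome-building genes was slightly lower than with DMSO in most members, and the polymerase I subunit Cd3eap and the large subunit factor Rrp1b were lowest relative to DMSO. The fitted level was below that of DMSO for 41 of 42 members, against 49% of all genes tested, and the median fold (C28 over DMSO) was 0.906, against 1.003 over all genes tested. The folds ran from 0.689 for Cd3eap to 1.03 for Taf1b. In the fit by limma without a block, 0 members fell and 0 rose at an adjusted p under 0.05, where 0.0157% of all genes fell and 0.121% rose. At an unadjusted p under 0.05, 4 members were lower, against 3.41% of all genes. All 3 C28 libraries lay below all 3 DMSO libraries for 8 members, which were Cd3eap, Taf1c, Taf1d, Wdr43, Nop2, Pes1, Rrp1b and Noc2l. Over all genes tested, 6.5% showed this. The 19087 genes tested include many with few counts, and 10578 genes averaged at least 50 normalized counts. Every member averaged at least 415 in each group. Shares among genes with counts like those of the members were not computed. The shares of all genes given here and below are therefore only a rough comparison.

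Libraries with the same replicate number deviated together, so the groups were also compared within pairs. With the replicate number as a block, 10 of the 42 members fell and 0 rose by limma at an adjusted p under 0.05, beside 2.25% of all genes that fell and 2.54% that rose. The 10 were Polr1a, Polr1b, Cd3eap, Taf1c, Nolc1, Heatr1, Bysl, Nop2, Bop1 and Rrp1b. Of these, 6 were called again with each pair left out in turn, namely Polr1b, Cd3eap, Nolc1, Nop2, Bop1 and Rrp1b. Such a fit keeps few libraries from which to estimate the error, so the repeated calls do not show replication. For Cd3eap the limma adjusted p with the block was 0.00131 with all libraries and 1.27e-07 without pair 3. Lower values with fewer libraries were found for all 6, except for Nop2 without pair 2 (0.0176 against 0.00895). Other tests of the recovered reads gave other counts. With edgeR, 16 members fell with the block, beside 3.34% of all genes, and 0 without it, beside 0.0157%. With DESeq2 and no block 1 fell, Cd3eap, beside 0.32%. In all 3 pairs 28 members were lower with C28, beside 18.8% of all genes.

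**Figure D1:**
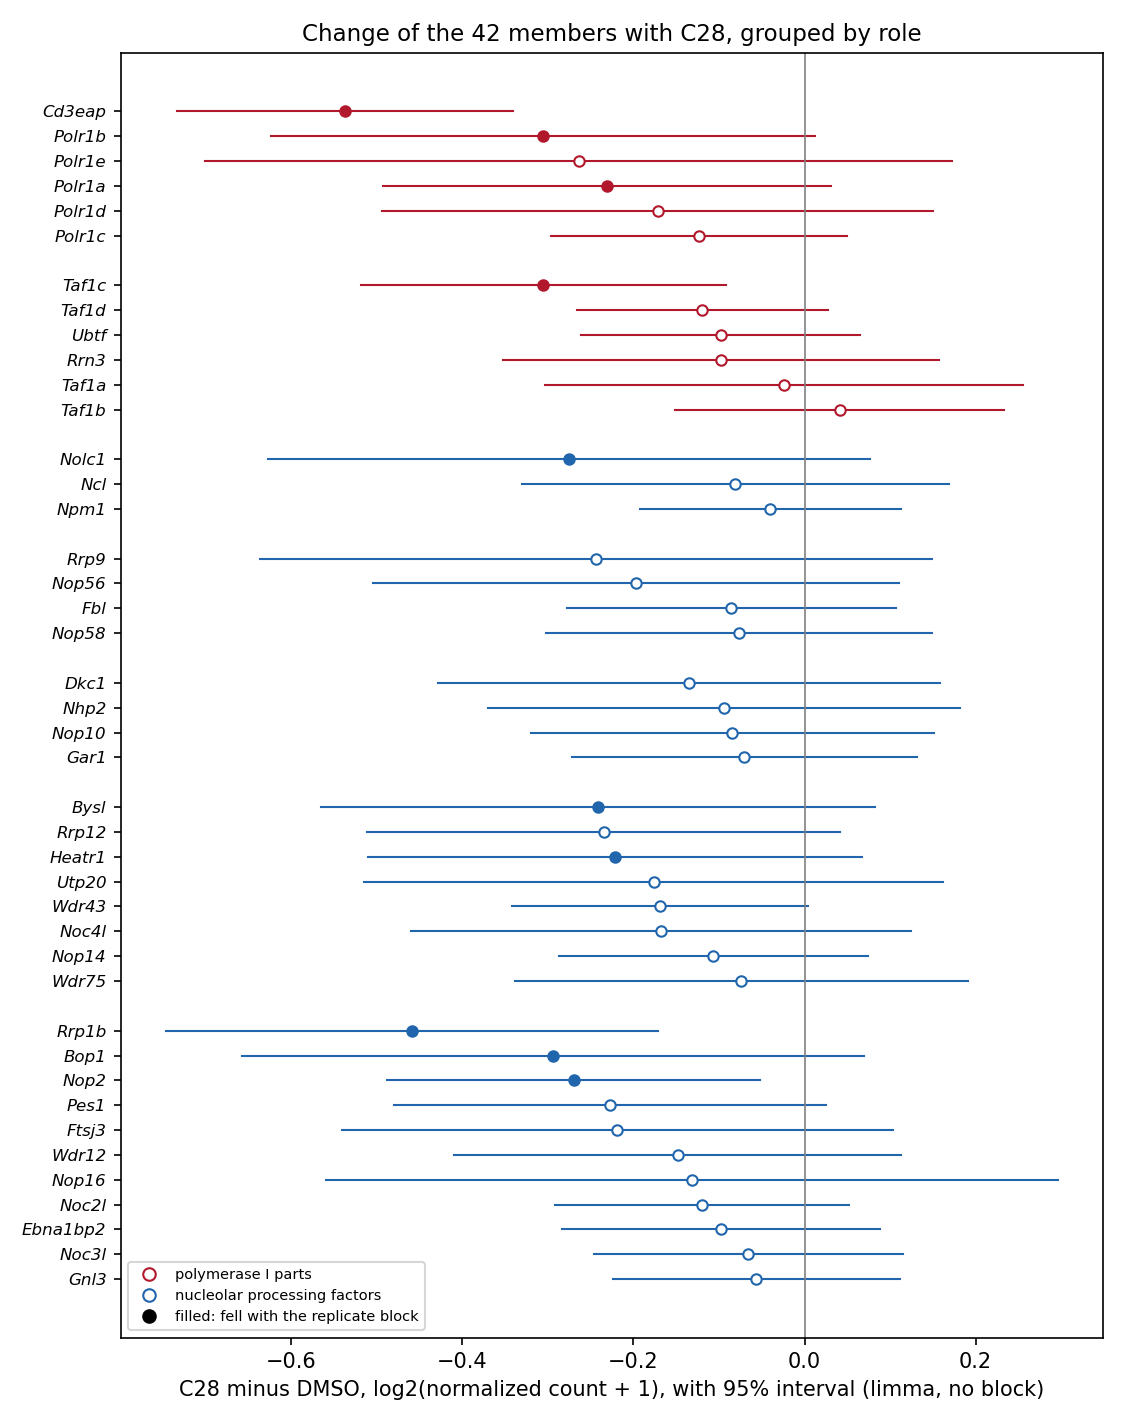
The difference between C28 and DMSO is drawn for each of the 42 members on the log2(normalized count + 1) scale, as points with 95% intervals from the limma fit without a block, grouped by role, with red for polymerase I parts and blue for nucleolar processing factors. Filled points mark the 10 members that fell with the replicate block, and Taf1b is the only point above 0.

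Cd3eap encodes a subunit of polymerase I that pairs with Polr1e in the part of the enzyme that aids initiation and elongation. It stood at 1263, 1278 and 1185 normalized counts in DMSO replicates 1 to 3 and at 781, 892 and 898 in C28 replicates 1 to 3. Every C28 library was below every DMSO library, by a margin wider than the spread inside either group. The fitted fold was 0.689, a log2 difference of -0.54 ± 0.08 (SE) with a 95% interval from -0.73 to -0.34. It was just short of the threshold without the block (limma adjusted p = 0.0949) and past it with the block (limma adjusted p = 0.00131). DESeq2 without the block gave an adjusted p of 0.00023. In the authors' deposited table the log2 fold change of Cd3eap is -0.47 with an adjusted p of 0.000172, and it is the only one of the 42 members under 0.05 in that table. The next is Rrp1b, at 0.0748 in the authors' deposited table.

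The gene body of Cd3eap overlaps that of Ercc1, a DNA repair gene read from the opposite strand. The strand setting of the authors' counting is not known here, and reads of the shared stretch may have gone to either gene. Ercc1 stood at 386, 422 and 384 normalized counts with DMSO and 408, 369 and 440 with C28, averaging 38.2% of the Cd3eap counts. Its groups overlapped and its fitted fold was 1.02 (limma adjusted p = 0.989, or 0.916 once blocked), unlike the fold of Cd3eap.

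The promoters of members that carry the letters CACGTG are of interest because this E-box is the sequence that Myc with its partner Max prefers. RefSeq promoters on build GRCm38.p6, spanning 250 bases before to 50 bases after the start, were matched by symbol for 38 of 42 members. CACGTG reads the same on both strands. It was in 6 of these 38 members (15.8%), in 11.1% of the tested genes with a promoter in the table, and in 8.09% of all 27025 genes there. The members were Cd3eap, Nop2, Rrn3, Pes1, Utp20 and Wdr43. It was in 2 of 12 polymerase I parts (16.7%), in 4 of 26 nucleolar factors (15.4%) and in 2 of the 9 matched members that fell with the block. It was also in 4 of the 29 matched members not called with the block (13.8%). Of the other ribosome assembly factors described further below, 16 of 77 matched genes carried it (20.8%). The stretches below show the E-box in capitals for the 3 members that carry it before the start, each as 100 bases read 5′ to 3′ on the strand of the gene. Cd3eap and Nop2 fell with the block and Rrn3 was not called. Cd3eap lies on the minus strand at chr7:19359634-19359733, Nop2 on the plus strand at chr6:125131776-125131875, and Rrn3 on the plus strand with a pair of E-boxes, in chr16:13780449-13780548 and chr16:13780599-13780698.
Cd3eap: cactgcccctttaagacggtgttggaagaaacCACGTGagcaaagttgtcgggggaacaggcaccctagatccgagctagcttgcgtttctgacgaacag
Nop2: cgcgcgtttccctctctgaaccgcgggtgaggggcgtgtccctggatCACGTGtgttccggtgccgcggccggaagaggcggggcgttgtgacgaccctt
Rrn3, far E-box: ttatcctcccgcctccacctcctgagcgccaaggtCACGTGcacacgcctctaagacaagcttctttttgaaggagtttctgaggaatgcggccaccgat
Rrn3, near E-box: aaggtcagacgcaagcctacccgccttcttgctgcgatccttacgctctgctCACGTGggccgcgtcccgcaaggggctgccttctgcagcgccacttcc

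The E-box shown for Cd3eap begins 218 bases before the start, that of Nop2 60 bases before it, and those of Rrn3 215 and 48 bases before it. Cd3eap holds another at or after its start, where those of Pes1, Utp20 and Wdr43 also lie. A match of letters is a description of the sequence and not evidence of binding.

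Among the other polymerase I subunits, the paired large subunits that form the active centre fell with the block. Polr1b, the second largest subunit, stood at 2948, 3486 and 3388 normalized counts with DMSO and at 2135, 2868 and 3012 with C28. DMSO replicate 1 lay below C28 replicate 3, so the groups overlapped, but each C28 library was below its own numbered control. The fold was 0.809 (log2 difference -0.31 ± 0.14 SE, limma adjusted p = 0.658), and with the block the error shrank to 0.06 (limma adjusted p = 0.0133). Without C28 replicate 1 the log2 difference was -0.15, but that fit keeps DMSO replicate 1, the control of the same number. Without replicate 1 of both groups, a fit added after seeing the data, the log2 difference was -0.23.

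Polr1a, the largest subunit, stood at 3056, 3608 and 3683 normalized counts with DMSO and at 2577, 2937 and 3321 with C28. The groups overlapped in the same way, and the fold was 0.852 (limma adjusted p = 0.715, or 0.02 once blocked). Over the 3 pairs the folds of Polr1a and Polr1b ran from 0.724 to 0.902. For Polr1a the log2 difference of -0.23 became -0.14 without C28 replicate 1, and was -0.22 without replicate 1 of both groups.

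The remaining subunits were not called by limma in either fit. Polr1e, the partner of Cd3eap, stood at 1087, 1388 and 1256 normalized counts with DMSO and at 761, 1177 and 1222 with C28. It was far lower in pair 1 (fold 0.70) than in pair 3 (0.973), and the limma adjusted p was 0.834, and 0.104 with the block while edgeR with the block gave an adjusted p of 0.0353. Its log2 difference of -0.26 became -0.05 without C28 replicate 1, and was -0.14 without replicate 1 of both groups. Polr1c and Polr1d form a pair that is shared with RNA polymerase III. Polr1c averaged 1752 ± 42.5 under DMSO and 1611 ± 113 under C28 (SD, n = 3 each), with a log2 difference of -0.12 and a 95% interval from -0.30 to 0.05. Polr1d, with the most counts of the subunits, stood at 4509, 3988 and 4693 with DMSO and at 3114, 4351 and 4357 with C28. It was lower in pairs 1 and 3 and higher in pair 2, and the limma adjusted p was 0.871, and 0.382 with the block.

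Among the promoter and initiation factors, the SL1 subunit Taf1c fell with the block. It stood at 486, 519 and 536 normalized counts with DMSO and at 401, 405 and 441 with C28. The groups did not overlap, and the folds in pairs 1, 2 and 3 were 0.824, 0.781 and 0.823, among the most even of the members. The fitted fold was 0.809 (log2 difference -0.31 ± 0.09 SE, limma adjusted p = 0.455), and the limma adjusted p with the block was 0.0385.

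The other SL1 subunits were not called. Taf1b averaged 575 ± 21.9 normalized counts under DMSO and 591 ± 24.4 under C28 (SD, n = 3 each), with a 95% interval of the log2 difference from -0.15 to 0.23. Taf1a averaged 467 ± 24.8 and 462 ± 61.2. Taf1d averaged 2579 ± 107 and 2373 ± 60.9, and its groups did not overlap, but it was not called (fold 0.921, limma adjusted p = 0.742, or 0.205 once blocked). Cep295, read from the opposite strand across part of Taf1d, averaged 46% of its counts with a fold of 0.991.

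Ubtf, which encodes UBF, stood at 7410, 6493 and 6537 normalized counts with DMSO and at 6415, 6503 and 6149 with C28. DMSO replicate 1 was the high value and the other 5 libraries lay close together, with a 95% interval of the log2 difference from -0.26 to 0.07. Rrn3, the factor through which growth signals switch initiation on, averaged 2495 ± 218 and 2337 ± 290 (fold 0.934, limma adjusted p = 0.922, or 0.32 once blocked). Of the 6 promoter and initiation factors, 1 fell by limma with the block, and of the 6 subunits, 3 did.

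**Figure D2:**
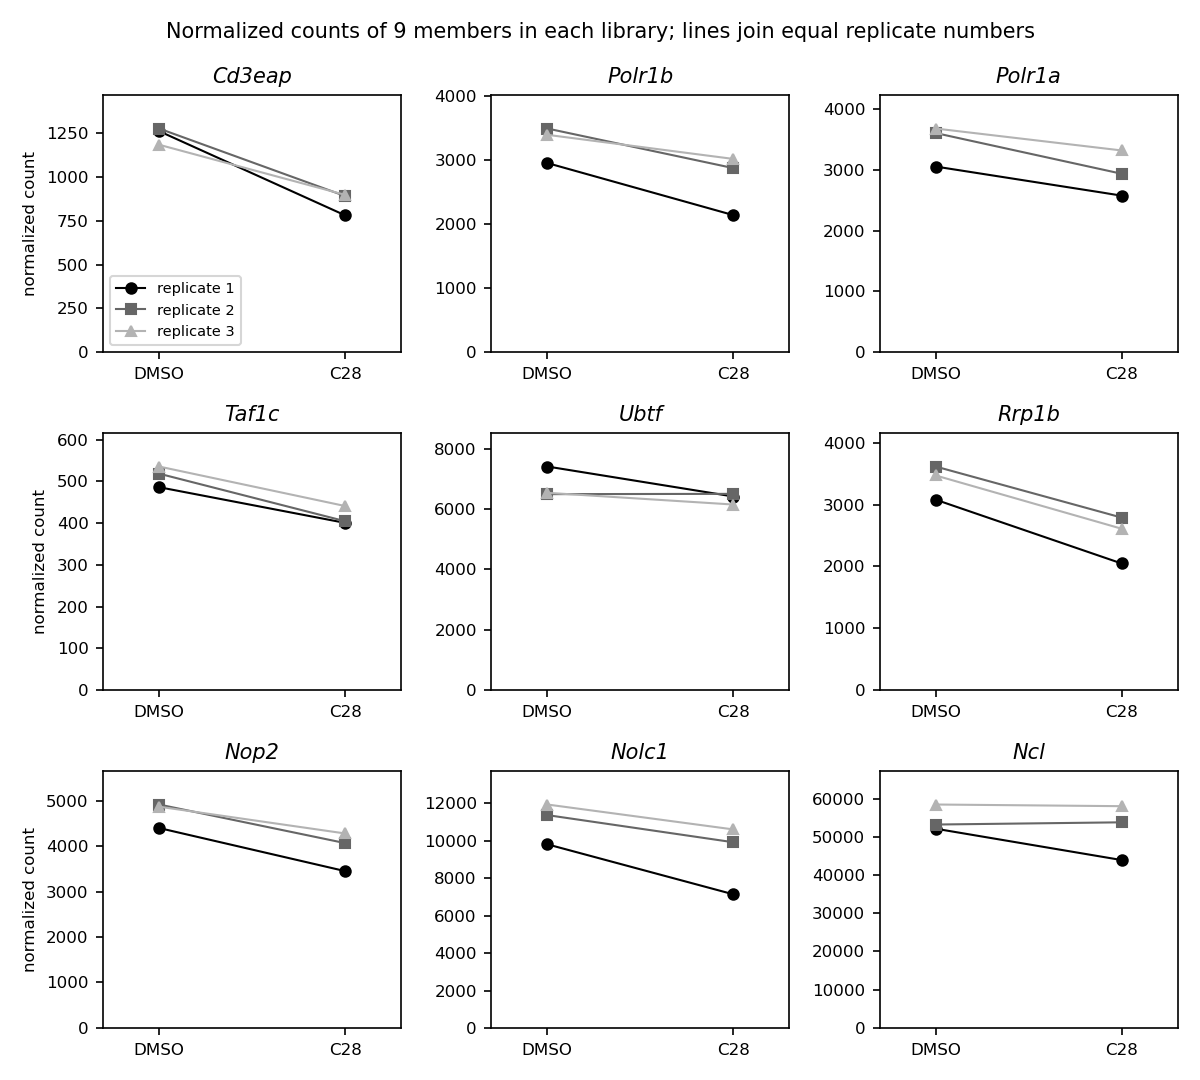
Normalized counts of 9 members are drawn for DMSO and C28, with each vertical axis starting at 0, 1 symbol per replicate number and lines joining libraries of the same number. The 3 lines of Cd3eap, Taf1c, Rrp1b and Nop2 all slope down, whereas for Ubtf and Ncl at least 1 line is level.

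Turning to the nucleolar factors, the members of the large subunit pathway held the lowest fold. Rrp1b, a nucleolar protein of large subunit assembly, stood at 3079, 3616 and 3471 normalized counts with DMSO and at 2046, 2789 and 2609 with C28. The groups did not overlap, and each pair was lower by a similar amount, with folds of 0.665, 0.771 and 0.752. The fitted fold was 0.728 (log2 difference -0.46 ± 0.12 SE, limma adjusted p = 0.38), and Rrp1b fell with the block, where its limma adjusted p of 0.000882 was the lowest of the 42 members.

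Nop2, a methyltransferase of large subunit rRNA and a marker of proliferating cells, stood at 4401, 4919 and 4871 normalized counts with DMSO and at 3452, 4069 and 4281 with C28. The highest C28 library lay just under the lowest DMSO library. The fold was 0.829 (limma adjusted p = 0.529, or 0.00895 once blocked). Its log2 difference was -0.27, -0.18 without C28 replicate 1, and -0.23 without replicate 1 of both groups.

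Bop1 works with Pes1 and Wdr12 in the PeBoW complex, which large subunit precursors need. Bop1 stood at 3258, 3961 and 4021 normalized counts with DMSO and at 2388, 3348 and 3522 with C28, and fell with the block (fold 0.816, limma adjusted p = 0.744, or 0.0126 once blocked). Pes1 stood at 3596, 3891 and 3894 and at 2728, 3480 and 3575, without overlap, and was just short of the threshold (fold 0.854, limma adjusted p = 0.702, or 0.0508 once blocked). Wdr12 averaged 3472 ± 217 and 3151 ± 453 (fold 0.902, limma adjusted p = 0.182 with the block). With the block limma called 1 of the 3 proteins of the complex, while edgeR called Bop1 (adjusted p = 0.000868) and Pes1 (adjusted p = 0.0105), and all 3 were lower in 3 of 3 pairs. Without C28 replicate 1 the log2 difference of Bop1 was -0.12 in place of -0.29 and that of Pes1 -0.10 in place of -0.23. With replicate 1 left out of both groups, Bop1 was at -0.22 and Pes1 at -0.14.

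The other 6 large subunit factors were not called by limma in either fit. Ftsj3, an rRNA methyltransferase, had a fold of 0.859 (limma adjusted p = 0.0632 with the block) and fell in edgeR with the block (adjusted p = 0.0127). Noc2l, with the most counts of this role, stood at 5640, 5682 and 5663 normalized counts with DMSO and at 4713, 5517 and 5439 with C28. Its DMSO libraries were nearly equal and all 3 C28 libraries were below them, most of all replicate 1, giving a fold of 0.92 (limma adjusted p = 0.795, or 0.25 once blocked). Nop16, Noc3l, Ebna1bp2 and Gnl3, a nucleolar GTPase also called nucleostemin, had folds from 0.913 for Nop16 to 0.962 for Gnl3.

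Among the 8 small subunit factors 2 fell with the block. Heatr1, a scaffold protein that also assists polymerase I transcription, stood at 5376, 6347 and 6786 normalized counts with DMSO and at 4543, 5322 and 6038 with C28. The groups overlapped, yet the folds within pairs 1, 2 and 3 were 0.845, 0.839 and 0.890 (limma adjusted p = 0.756, or 0.0137 once blocked). Bysl, which acts late in small subunit maturation, stood at 1704, 2018 and 2082 and at 1327, 1824 and 1789 (fold 0.846, limma adjusted p = 0.765, or 0.0346 once blocked). Without C28 replicate 1 the log2 difference of Heatr1 moved from -0.22 to -0.12 and that of Bysl from -0.24 to -0.09. With replicate 1 left out of both groups, Heatr1 was at -0.21 and Bysl at -0.18.

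Bysl overlaps Ccnd3, a D-type cyclin gene on the opposite strand with 142% of its counts. Ccnd3 stood at 2416, 3002 and 2789 normalized counts with DMSO and at 2023, 2616 and 2438 with C28, a fold of 0.861 (limma adjusted p = 0.756, or 0.0239 once blocked). Both genes were lower in each pair, and without the strand their shared reads cannot be told apart. In total 16 of 42 members overlap another tested gene in the RefSeq annotation, and 6 of these are among the 10 that fell with the block: Polr1a, Cd3eap, Taf1c, Heatr1, Bysl and Bop1. Other than for Cd3eap and Bysl, no overlapping gene of these 6 averaged more than 17.6% of the counts of the member. The share of all tested genes with such an overlap was not computed, so neither 16 of 42 nor 6 of 10 can be read as unusual.

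The remaining small subunit factors were uncalled in both limma fits. Wdr43, a transcription-coupled processing factor, averaged 5405 ± 37.1 normalized counts under DMSO and 4822 ± 417 under C28 (SD, n = 3 each) without overlap between the groups (fold 0.89, limma adjusted p = 0.655, or 0.109 once blocked). Rrp12 had a fold of 0.85 (limma adjusted p = 0.0646 with the block) and fell in edgeR with the block (adjusted p = 0.0167). Utp20, Noc4l, Nop14 and Wdr75 had folds from 0.885 for Utp20 to 0.95 for Wdr75.

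The proteins of the small nucleolar ribonucleoproteins, which guide rRNA modification, had median log2 differences of -0.14 for box C/D and -0.09 for box H/ACA. None of the 4 box C/D proteins and none of the 4 box H/ACA proteins was called by limma in either fit. In the box C/D group, Nop58, with the most counts, stood at 9287, 8815 and 9526 normalized counts with DMSO and at 7544, 9075 and 9713 with C28, lower in pair 1 only. Fbl, the methyltransferase fibrillarin, averaged 6129 ± 138 and 5796 ± 589 (SD, n = 3 each). Nop56 and Rrp9, a protein of the U3 particle, had folds of 0.872 and 0.845 (blocked limma adjusted p = 0.0648 and 0.0697), and both fell in edgeR with the block (adjusted p = 0.0156 and 0.0181).

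In the box H/ACA group, Dkc1, the pseudouridine synthase dyskerin, stood at 4266, 4682 and 4971 normalized counts with DMSO and at 3473, 4455 and 4841 with C28. Its fold of 0.91 rested on replicate 1, since pairs 2 and 3 had folds of 0.952 and 0.974. Its partners Gar1, Nhp2 and Nop10 had folds of 0.952, 0.937 and 0.943. The log2 intervals of the 4 H/ACA proteins lay between -0.43 and 0.18.

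Of the abundant nucleolar proteins, Nolc1 fell with the block and Ncl and Npm1 were not called. Nolc1, a chaperone of small nucleolar ribonucleoproteins that also binds polymerase I, stood at 9816, 11378 and 11944 normalized counts with DMSO and at 7142, 9926 and 10612 with C28 (fold 0.826, limma adjusted p = 0.756, or 0.0185 once blocked). The log2 difference of Nolc1 was -0.28, -0.10 without C28 replicate 1, and -0.18 without replicate 1 of both groups. Ncl, nucleolin, stood at 52140, 53224 and 58466 and at 43928, 53805 and 58029, so that pair 1 was lower (fold 0.843) and pairs 2 and 3 were nearly level (1.01 and 0.993). Npm1, nucleophosmin, averaged 49074 ± 3416 and 47659 ± 587 (SD, n = 3 each), with a 95% interval of the log2 difference from -0.19 to 0.11. Both Npm1 and Fbl have pseudogene copies that may share reads with them, so their values are less certain.

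A comparison of the classes gave nearly equal medians. The median log2 difference between C28 and DMSO was -0.15 for the 12 polymerase I parts and -0.14 for the 30 nucleolar factors, and the difference between these medians was 0.0055, where its SD over the 3 pairs was 0.063. With the replicate block, 4 of 12 polymerase I parts and 6 of 30 nucleolar factors fell by limma. Without Cd3eap the polymerase I median was -0.12. Inside the first class the 6 subunits among the members had a median of -0.25 and the promoter and initiation factors of -0.10. The subunits Twistnb and Znrd1, which are not members, had log2 differences of -0.01 and 0.06. Inside the second class the roles ran from -0.17 for the small subunit factors to -0.08 for the abundant proteins. These medians are descriptions over genes of the same libraries and carry no test.

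The size of the difference depended on the pair. In pair 1 all 42 members were lower with C28, with a median fold of 0.821. In pair 2, 31 members were lower with a median fold of 0.949, and in pair 3, 35 were, with 0.940. Over all genes tested the median folds of pairs 1 to 3 were 1.01, 1.00 and 1.00. For 39 of 42 members pair 1 held the lowest fold, and C28 replicate 1 was the lowest of the 6 libraries for 38 members, whereas it was the lowest for 28.8% of the 10578 genes averaging at least 50 normalized counts. Summed over the members, C28 replicate 1 held 208213 normalized counts (1.17% of the library) and the other 5 libraries 245943 to 264418 (1.35% to 1.49%). The sum of the leukocyte and mast cell markers was also lowest in that library, at 42640, but its genes did not move together. Gata2 and Cpa3 were at their lowest there, at 21760 and 5016. Ptprc, Fcer1g and Spi1 were at their highest there, at 8917, 1691 and 1368. Part of this was shared with DMSO replicate 1. Among the DMSO libraries it held the highest Ptprc and Fcer1g, at 8157 and 1585, and the lowest Cpa3, at 5532. Its Gata2, at 26194, was instead the highest, and its Spi1, at 1158, lay between the others. Hdc stood at 1.87 and 2.08 in DMSO and C28 replicate 1, and at 97.6 to 117 elsewhere. Il1rl1 stood at 1744 and 1849, and at 4632 to 5622 elsewhere. Whether this bears on the members was not tested.

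**Figure D3:**
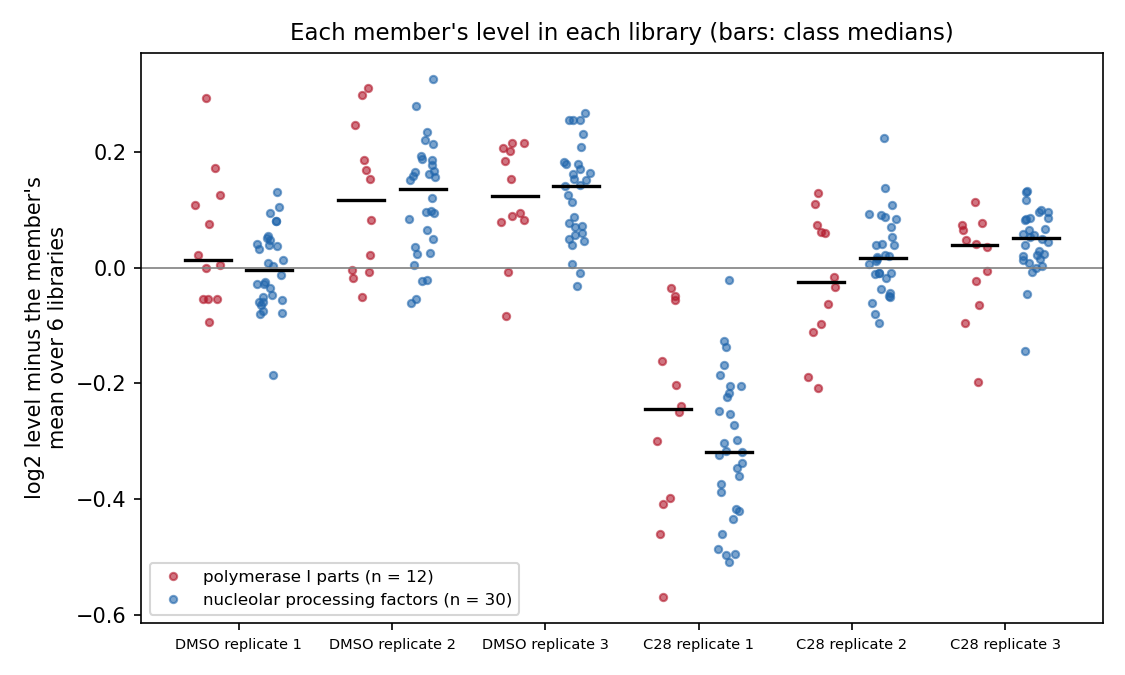
Each point is 1 member, drawn as its log2(normalized count + 1) minus its mean over the 6 libraries, with red for the 12 polymerase I parts, blue for the 30 nucleolar processing factors and black bars for class medians. The medians of C28 replicate 1 sit at -0.24 and -0.32, below those of the other 5 libraries, and those of C28 replicates 2 and 3 lie between -0.02 and 0.05.

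Without C28 replicate 1, 31 of 42 members had a fitted level below DMSO, and the class medians were -0.09 for polymerase I parts and -0.04 for nucleolar factors, both still below 0 but reduced by over 1.5 times. With replicate 1 left out of both groups, an analysis chosen after seeing the data, 32 of 42 were below 0 and the medians were -0.09 and -0.07. In that fit of 4 libraries limma called Cd3eap, Nop2 and Rrp1b without the block, beside 0.813% of all genes that fell. With the block it called 14 members, beside 5% of all genes that fell. All of these members were lower than DMSO. The 10 members that fell with the block in all 6 libraries were among these 14. Since the 4 libraries are part of the 6, that overlap is not a separate check. The blocked fit of 4 libraries also leaves little from which to estimate the error.

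**Figure D4:**
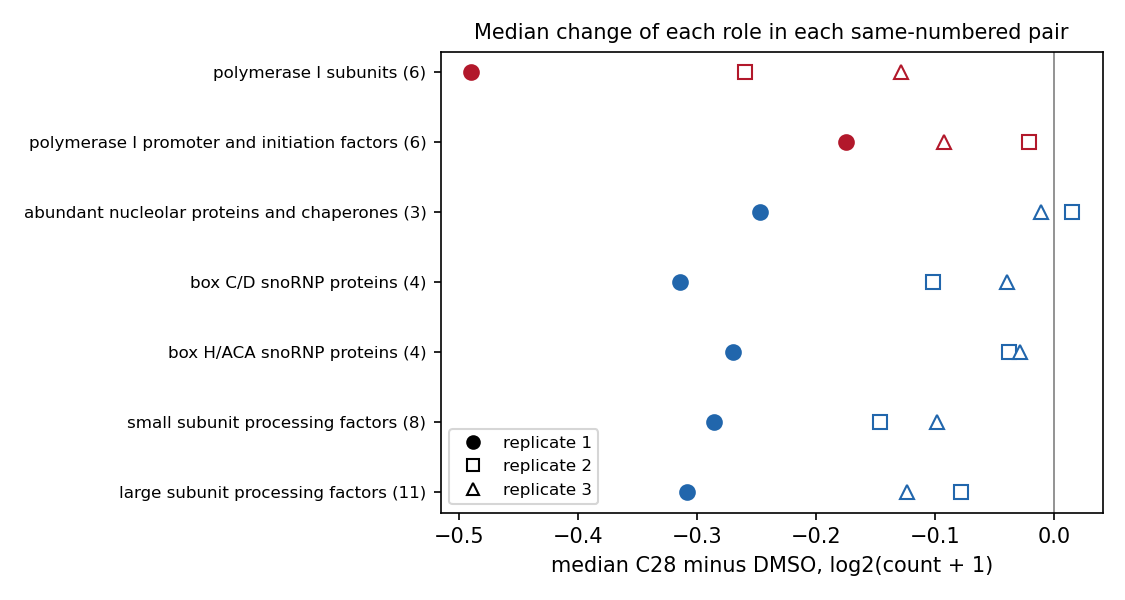
The median over the members of each role of C28 minus DMSO, on the log2(normalized count + 1) scale, is drawn for each same-numbered pair, with the number of members in brackets, filled circles for replicate 1, and open squares and triangles for replicates 2 and 3. Replicate 1 is farthest below 0 in each of the 7 roles, and the polymerase I subunits reach -0.49, -0.26 and -0.13.

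In the RefSeq annotation 7 of 42 members (16.7%) enclose at least 1 small nucleolar RNA gene, beside 2.19% of tested protein-coding genes. They were Taf1d, Ncl, Nop56, Nop58, Dkc1, Wdr43 and Gnl3, with 24 such genes between them. With the block limma called 0 of these 7, beside 2.25% of all genes that fell and 2.54% that rose. By edgeR with the block Nop56 fell, beside 3.34% of all genes. Among 7 genes such counts cannot be told apart from these shares. The table of RNA levels was not used for the small RNAs themselves.

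Genes outside the 42 were read from lists of related machinery, also chosen with earlier results of these data known. Of 88 other ribosome assembly factors, limma without the block called 0, although 19 had an unadjusted p below 0.05, all lower, beside 3.41% of all genes. Without the block edgeR called 0 and DESeq2 called 2, both lower. With the block 17 fell and 0 rose by limma, beside the 2.25% and 2.54% of all genes given above. With the block 27 fell by edgeR, beside 3.34%. The median log2 difference of the 88 was -0.15, close to both classes of members, and 30 had all C28 libraries below all DMSO libraries, beside 6.5% of all genes. Those with the lowest p in the blocked fit were Urb2, an assembly factor of the large subunit, Utp15, of the small subunit processome, Rrs1, of large subunit assembly, Dhx37, a small subunit helicase, and Pelp1, of a complex that processes large subunit precursors. Urb2 averaged 1145 ± 50.2 normalized counts under DMSO and 892 ± 34.8 under C28 (SD, n = 3 each; fold 0.779, limma adjusted p = 0.217, or 0.00482 once blocked). Utp15 was tightly grouped at 2097, 2100 and 2094 with DMSO and stood at 1603, 1735 and 1747 with C28. Rrs1, Dhx37 and Pelp1 had folds of 0.784, 0.811 and 0.809.

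Other polymerase genes were mostly uncalled. Of 13 further genes of polymerase I transcription, among them the subunits Twistnb and Znrd1 and the rDNA termination factor Ttf1, 0 passed by limma in either fit and the median log2 difference was -0.07. Of all genes 2.25% fell and 2.54% rose by limma with the block. Before adjustment limma without the block had 0 below 0.05, beside 3.41% of all genes that were lower. By edgeR 0 were called without the block and 1 fell with it, beside 0.0157% and 3.34% of all genes that fell. A median of -0.07 was also found for 22 subunits and factors of RNA polymerase III, which makes transfer RNA and the smallest rRNA. Of these 0 passed by limma in either fit, 1 was lower at an unadjusted p under 0.05, and edgeR called 0 in both of its fits. In lists of 13 and 22 genes, counts of 0 or 1 cannot be told apart from the shares of all genes. Twistnb averaged 1873 ± 57.1 under DMSO and 1857 ± 139 under C28 (SD, n = 3 each).

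Of 10 tested genes for Myc and its partners, limma without the block called 0, although 2 had an unadjusted p below 0.05, both lower, beside 3.41% of all genes. Without the block edgeR and DESeq2 each called 0. With the block 2 fell and 1 rose by limma, beside 2.25% and 2.54% of all genes, and edgeR called 4, of which 3 fell, beside 3.34%. Myc stood at 8954, 7767 and 7844 normalized counts with DMSO and at 7123, 6379 and 6346 with C28, without overlap (fold 0.809, limma adjusted p = 0.355, or 0.00185 once blocked). Mxd3, a Max partner that opposes Myc at its targets, fell from 232 ± 18.7 to 163 ± 13.8 (SD, n = 3 each; fold 0.703, limma adjusted p = 0.341, or 0.024 once blocked). Mxd4, another such partner, stood at 1486, 462 and 450 and at 2033, 573 and 536, far higher in replicate 1 of both groups, and rose with the block (fold 1.26, limma adjusted p = 0.966, or 0.0148 once blocked).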

How the data were processed

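Members and lists were chosen with earlier results of these data known. Judged from its values, the deposited table holds a signal, gene read counts that the authors divided by 1 size factor per library: within 0.01, 100% of values came out as whole reads, on which edgeR calls 28 genes. The authors' log2 fold changes and adjusted p-values (a p-value per gene) were copied from the deposited table. Bowtie2, Cufflinks 2.2.1 and build mm9 are named in the submitters' processing notes. For the counting tool and strand setting, nothing is given in the sources used here. Since no gene positions on mm9 were at hand, the peak lists were not used.

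Genes at 1 or more in at least 3 of 6 libraries were tested on log2(value + 1), which understates changes of low genes, with limma 3.58.1 (R 4.3.3) with an intensity trend, Benjamini-Hochberg adjustment over 19087 genes and a threshold of 0.05. Fold means C28 over DMSO from that fit. The design had planned edgeR for raw counts and limma for normalized values, and the latter applied. Alternatives used edgeR 4.0.16 and DESeq2 1.42.0 on recovered reads. The fits were tested on simulated data. No label states a pairing. Over 10578 genes averaging at least 50, deviations from group means correlated at 0.84, 0.68 and 0.70 between libraries numbered 1, 2 and 3, so the numbers were taken as pairs. Differently numbered libraries ranged from -0.75 to 0.54, with DMSO 2 and C28 3 at 0.54 and DMSO 3 and C28 2 at 0.41. The deviations of a gene sum to 0 within a group, which by itself favours negative values between different numbers. The negative values are thus no separate evidence of pairing. Telling number 2 from number 3 rests on 0.68 and 0.70 against 0.54 and 0.41. For all 6 libraries the highest correlation was with the same number. Members given in every library were those called in a limma fit without or with the block and the member of each role with the most counts. From the other lists, at most 5 called genes per direction were named. The table names 24187 genes, and Ensembl identifiers named 29950 more. Polr1e, Pes1, Ccnd3, Ercc1, Twistnb and Znrd1 are also given, chosen after their values were seen.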

Additional observations from a re-analysis of the deposited data

How the results depend on the processing

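Without a block, 0 members were called under both other pseudocounts, both other filters, TMM scaling, edgeR and each of the 6 fits that left out a library, and DESeq2 called 1. With the replicate block limma called 10 members and edgeR 16. With replicate 1, 2 or 3 left out of both groups (added after seeing the data), limma called 3, 0 and 0 without the block and 14, 12 and 14 with it. Over all genes, limma called 26 without the block, 914 with it and 5 to 30 when a library was left out (5 without DMSO replicate 3, 30 without C28 replicate 1); edgeR called 28, and 1354 with the block, and DESeq2 182. Leaving out replicate 1, 2 or 3 in both groups gave 356, 0 and 0 calls without the block and 1703, 827 and 1006 with it.

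The number of members below DMSO was 31 to 42 in all settings. Nucleolar minus polymerase I median (0.0055) changed sign without DMSO replicate 1 (-0.033, up to 0.049 without C28 replicate 1) and without replicate 2 (-0.0019) or 3 (-0.0040) of both groups; the cause was not tested. Of 18 members given by library, Dkc1, Ncl and Nop58 turned above 0 without C28 replicate 1 (0.0043, 0.035 and 0.029; -0.24, -0.17 and -0.15 without C28 replicate 3), as did Ncl, Nop58 and Polr1d without replicate 1 of both groups (0.0024, 0.035 and 0.0093). None of these 4 was called in the limma fits of all 6 libraries.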
